A study of Mus musculus with 21 samples.

Results

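Hsd11b1 and 6 genes of the glucocorticoid response (Nr3c1, Tsc22d3, Fkbp5, Dusp1, Klf9 and Per1) were followed through 21 RNA-seq libraries of kidney macrophages. The 7 genes were picked by name from the 34236 gene names of the count table, with their values in these libraries already known. Their levels and differences are therefore given as a description without p-values. The macrophages came from male C57BL/6J mice aged 24 weeks, either after Sham surgery or after renal artery stenosis (RAS), in which a cuff narrows the right renal artery so that the kidney is chronically short of blood. No transgene, drug or culture was involved. Cells positive for F4/80 and CD64 were sorted by CD11b and CD11c into CD11chiMϕ and CD11cloMϕ, both derived from monocytes, and kidney-resident macrophages (KRM), with a sort time of 5 h per the labels. There were 3 Sham and 4 RAS libraries of CD11chiMϕ, 3 and 4 of CD11cloMϕ, and 4 and 3 of KRM. The study counts its replicates in mice, but no label ties a library to a single mouse, so the spread between replicates, which the p-values measure, may in part be technical.

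Glucocorticoids reach a cell in an active form and an inactive, oxidised form. The product of Hsd11b1, 11β-hydroxysteroid dehydrogenase type 1, regenerates the active hormone inside the cell, using NADPH that H6pd supplies in the endoplasmic reticulum. Hsd11b2 encodes the enzyme of the opposite direction, which protects the mineralocorticoid receptor (Nr3c2) in the distal nephron. The active hormone binds the glucocorticoid receptor (Nr3c1), which moves to the nucleus and switches on target genes. Among these, Fkbp5 encodes a chaperone that lowers the hormone affinity of the receptor, Tsc22d3 encodes the anti-inflammatory protein GILZ, and Dusp1 encodes a phosphatase that turns off p38 and JNK. Klf9 encodes a transcription factor, and Per1 a repressor of the circadian clock. Dusp1 is also an immediate early gene that many stresses induce, including the enzymatic digestion of tissue.

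The windows upstream of the start sites are shown because Hsd11b1 and the 3 targets Fkbp5, Dusp1 and Tsc22d3 stood on opposite sides of Sham in KRM of RAS kidneys. Promoters were taken from RefSeq (build GRCm38.p6) for 6 of the 7 genes, all but Nr3c1, with 9 start sites in all. Each window holds the 250 bases before the start, read 5′ to 3′ on the strand of the gene, and capitals mark matches to the motifs described after them.
Hsd11b1 (chr1:193242361-193242610, minus strand): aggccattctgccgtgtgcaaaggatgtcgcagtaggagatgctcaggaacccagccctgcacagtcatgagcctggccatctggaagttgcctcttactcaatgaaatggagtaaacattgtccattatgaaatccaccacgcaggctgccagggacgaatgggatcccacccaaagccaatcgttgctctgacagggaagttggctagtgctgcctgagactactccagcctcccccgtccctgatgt
Fkbp5 (chr17:28486150-28486399, minus strand): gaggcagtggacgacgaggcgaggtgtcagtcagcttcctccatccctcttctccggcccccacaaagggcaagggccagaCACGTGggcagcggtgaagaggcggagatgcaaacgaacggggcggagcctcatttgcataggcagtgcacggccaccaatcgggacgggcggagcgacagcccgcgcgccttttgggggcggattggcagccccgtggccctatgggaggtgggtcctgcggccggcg
Dusp1 (chr17:26508473-26508722, minus strand): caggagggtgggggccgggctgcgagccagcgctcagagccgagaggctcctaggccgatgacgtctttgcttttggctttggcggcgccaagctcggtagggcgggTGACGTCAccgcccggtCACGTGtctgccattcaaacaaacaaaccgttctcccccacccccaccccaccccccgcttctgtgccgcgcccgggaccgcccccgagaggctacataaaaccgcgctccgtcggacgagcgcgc
Tsc22d3 (chrX:140600523-140600772, minus strand): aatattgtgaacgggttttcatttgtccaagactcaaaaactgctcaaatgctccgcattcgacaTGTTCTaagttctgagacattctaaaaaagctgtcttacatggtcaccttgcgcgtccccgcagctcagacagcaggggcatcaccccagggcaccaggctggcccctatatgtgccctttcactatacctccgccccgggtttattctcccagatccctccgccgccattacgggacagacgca
The window of Hsd11b1 had 54.4% GC and 6 CpG, where the medians over 32851 promoters were 52.4% and 6. Those of Fkbp5 and Dusp1 held 23 and 28 CpG. Both strands were searched for 5 motifs. The full palindrome of the glucocorticoid response element, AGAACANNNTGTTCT, was in none of the 9 windows and in 0.00913% of all promoters. Its half-site TGTTCT (reverse AGAACA), which is part of that palindrome, was found once, 185 bases before the printed start of Tsc22d3, and in 16.1% of all promoters. The E-box CACGTG, which clock factors can bind, was found in Fkbp5, Dusp1 and 1 window of Per1, at 169, 126 and 166 bases before the start, and in 6.02% of all promoters. The cAMP response element TGACGTCA was found in Dusp1 143 bases before the start, against 1.55% of promoters. The C/EBP motif TTGCNNAA was found in the same window of Per1 24 bases before the start, against 9.56%. The Hsd11b1 window held none of the 5. These are matches of letters in a short window, and a window without a match says nothing of the factors. In the GENCODE annotation of GRCm38, Hsd11b1 lies on chromosome 1 from 193221634 to 193264075. Exons of Dusp1 overlap those of Ergic1 on the opposite strand, and use of strand in the counting is not given in the sources used here, so reads in the shared bases could not be told apart. Nr3c1 was left out of the search for overlapping genes.

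Values are CPM (the counts of a gene, scaled by TMM to a common library size), from library totals of 6891142 to 18592381 counts. Several libraries stood apart from their groups. Replicate 3 of each Sham population carried proximal tubule genes, with the summed CPM of 10 markers at 14574 in CD11chiMϕ, 6045 in CD11cloMϕ and 2196 in KRM, where the other Sham libraries had 118 to 423. In KRM from RAS kidneys, 8 distal nephron and collecting duct markers summed to 94.2 CPM in replicate 1 but 3853 and 2866 CPM in replicates 2 and 3, and in KRM Sham to between 4.29 and 160 CPM. None of the 8 was at 0 in every KRM RAS library. The proximal tubule sum of KRM RAS was 1385, 788 and 700.2 CPM in replicates 1, 2 and 3. Endothelial markers (7 genes) summed to 16.9, 186 and 157 CPM there against 9.87 to 20.7 CPM in KRM Sham, with 3 of 5 tested called higher. Fibroblast and pericyte markers (7 genes) summed to 43.2, 358 and 444 CPM against 19.5 to 41.4 CPM, with 4 of 6 tested called higher. Replicate 1 correlated across genes at 0.959 with CD11chiMϕ RAS replicate 1 and at 0.952 to 0.962 with the KRM Sham libraries, but at 0.833 and 0.860 with the other KRM RAS libraries. It also had 310 CPM of 7 T and NK cell markers, against 29.8 and 30.6 CPM in the other 2 and at most 3.01 CPM in KRM Sham, with 7 of 7 called higher in KRM RAS. In the deposited log2 table the column of that library did not match its counts (r = 0.691, where every other library had at least 0.91). The summed CPM of 11 macrophage markers was 9895 to 11227 in KRM Sham and 4774 to 8968 in KRM RAS, with 3 of the 11 called lower. No macrophage marker was at 0 in all libraries of any group. Over all 12852 genes, 7.77% were called higher and 1.94% lower in KRM RAS. The source of the markers of other cells, and their part in the values, was not tested beyond what is stated beside each gene.

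Hsd11b1 was low in KRM of Sham kidneys and higher in KRM of RAS kidneys, there within the range of the monocyte-derived populations of RAS kidneys and below CD11cloMϕ of Sham kidneys. In KRM Sham it was at 1.80, 2.01, 1.45 and 1.99 CPM, from 15 to 29 counts, and in KRM RAS at 17.3, 12.2 and 14.3 CPM, from 141 to 176 counts. All 3 RAS libraries lay above all 4 Sham libraries, so the groups did not overlap. The means were 1.81 ± 0.261 CPM (SD, n = 4) and 14.6 ± 2.54 CPM (SD, n = 3), a log2 fold change of 3.12 (SE 0.24), or 8.68-fold. Replicate 1 had the fewest distal nephron genes of the 3 but the most proximal tubule genes (1385 CPM against 788 and 700.2). It also had the most T and NK cell genes (310 CPM against 30.6 and 29.8), monocyte markers (961 CPM against 542 and 718) and neutrophil markers (138 CPM against 70.8 and 88.6). In KRM Sham the monocyte and neutrophil sums were 532 to 828 and 91.7 to 119 CPM. The part of all these markers in the Hsd11b1 value was not tested. Replicate 1 had the highest of the 3 Hsd11b1 values. The log2 fold change was 2.95 (SE 0.26) without it and 3.30 (SE 0.32) with it as the only RAS library. KRM Sham replicate 3, with its proximal tubule genes, had the lowest value of its group. In the log2 table, whose column for KRM RAS replicate 1 does not match its counts, that column read 1.73, inside the KRM Sham range of 1.30 to 1.88, and replicates 2 and 3 read 3.99 and 4.24. The difference of means was 1.62 in that table with the column included.

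In CD11chiMϕ, Hsd11b1 was at 17.5, 12.96 and 21.3 CPM in Sham and at 22.03, 14.6, 2.96 and 6.31 CPM in RAS kidneys. The RAS libraries spread on both sides of the Sham libraries, with a log2 fold change of -0.67 (SE 0.64). It was -1.22 without RAS replicate 1 and -0.35 without RAS replicate 3. The 2 lowest RAS libraries, replicates 3 and 4, were also the 2 with the most dendritic cell markers, at 5114 and 5468 summed CPM over 7 genes. The other CD11chiMϕ RAS libraries had 1112 and 2041. The part of those markers in the value was not tested. In CD11cloMϕ it was at 27.1, 22.7 and 38.0 CPM in Sham and 7.002, 24.8, 17.5 and 18.4 CPM in RAS kidneys, a log2 fold change of -0.82 (SE 0.40). Those groups overlapped through RAS replicate 2 alone. The response to RAS in KRM thus exceeded that in CD11chiMϕ by 3.71 on the log2 scale (SE 0.73) and that in CD11cloMϕ by 3.86 (SE 0.48), both as descriptions of the same Sham and RAS libraries.

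Over the 6 groups, the order of mean Hsd11b1 levels was CD11cloMϕ Sham (29.3 ± 7.88 CPM), CD11chiMϕ Sham (17.3 ± 4.19), CD11cloMϕ RAS (16.9 ± 7.37), KRM RAS (14.6 ± 2.54), CD11chiMϕ RAS (11.5 ± 8.57) and KRM Sham (1.81 ± 0.261), with SD over n = 3 or 4. The first 2 differed with no overlap, by a log2 fold change of -0.66 (SE 0.34) for CD11chiMϕ minus CD11cloMϕ. CD11chiMϕ Sham and the 3 RAS groups overlapped with one another. All 4 KRM Sham libraries lay below every library of the other groups, the lowest of which had 2.96 CPM. In Sham kidneys the log2 fold change of KRM minus CD11chiMϕ was -3.32 (SE 0.29) and that of KRM minus CD11cloMϕ -4.03 (SE 0.24), and in RAS kidneys they were 0.40 (SE 0.61) and -0.18 (SE 0.41) with overlapping groups. Without replicate 3 of both Sham populations the first 2 values were -2.995 and -3.71.

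**Figure D1:**
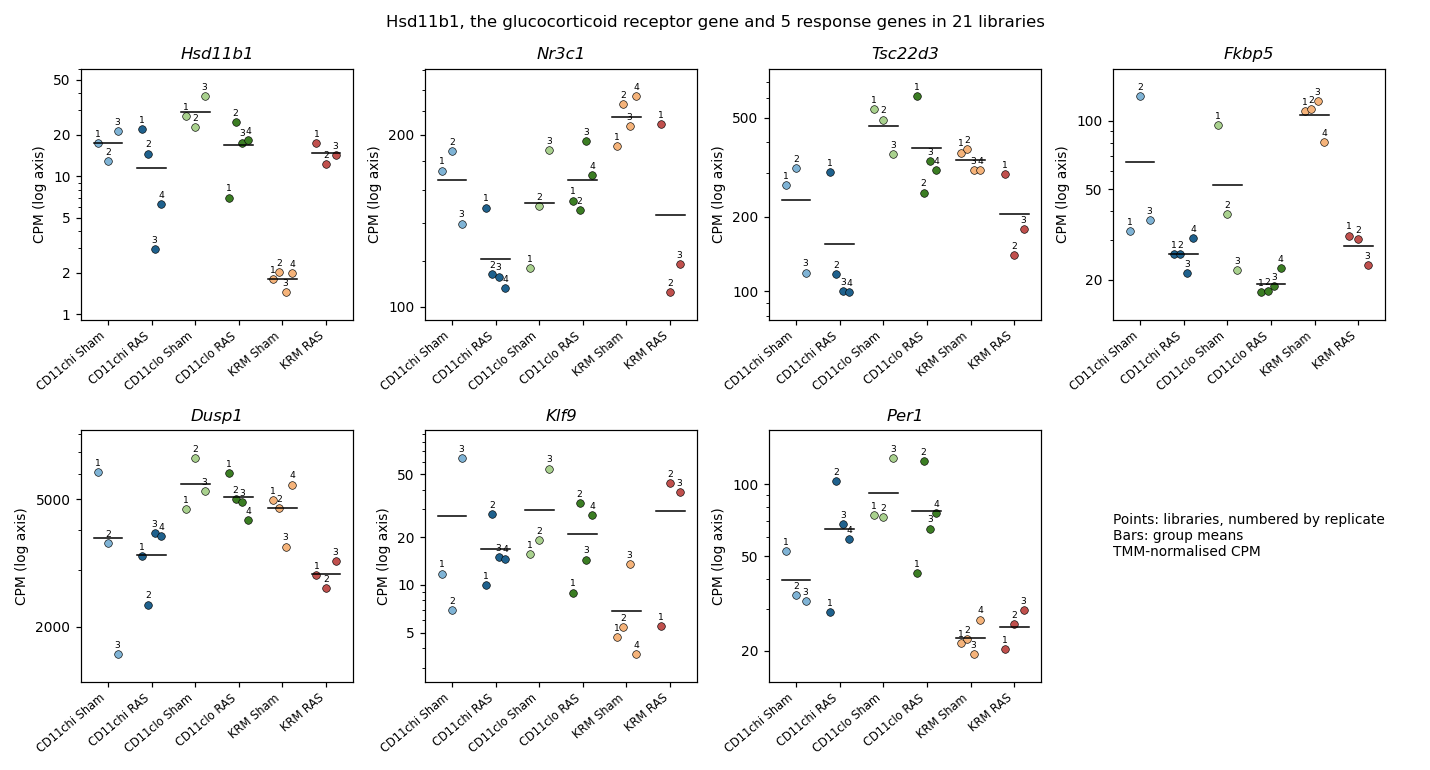
TMM-normalised CPM on a log axis for Hsd11b1, Nr3c1, Tsc22d3, Fkbp5, Dusp1, Klf9 and Per1 in 21 libraries, 1 point per library with its replicate number and a bar at each group mean. The 4 KRM Sham points of Hsd11b1 sit at 1.45 to 2.01 CPM, below all others, while Fkbp5 in KRM Sham (80.8 to 121 CPM) sits above KRM RAS (23.2 to 31.2 CPM).

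The receptor gene Nr3c1 was present in every library, between 106 and 234 CPM. In KRM Sham it was at 191, 227, 207 and 234 CPM, above all 6 other Sham libraries, which ran from 117 to 188 CPM. Against CD11chiMϕ and CD11cloMϕ of Sham kidneys its log2 fold change was 0.32 (SE 0.16) and 0.48 (SE 0.16). KRM RAS had 209 CPM in replicate 1 and 106 and 119 CPM in replicates 2 and 3. The first lay inside the Sham range and the others far below it, so the log2 fold change of -0.47 (SE 0.23) became -0.86 without replicate 1 and 0.01 with replicate 1 alone. The 2 low libraries were those with distal nephron genes, whose part was not tested. In CD11chiMϕ the 3 Sham libraries had 173, 187 and 140 CPM and the RAS libraries 149, 114, 113 and 108 CPM, a log2 fold change of -0.54 (SE 0.24) with overlap between Sham replicate 3 and RAS replicate 1. In CD11cloMϕ the change was 0.12 (SE 0.21).

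Fkbp5, the chaperone target, was lower in RAS than in Sham kidneys in all 3 populations by the group mean. In KRM it was at 109.7, 113, 121 and 80.8 CPM in Sham and at 31.2, 30.2 and 23.2 CPM in RAS kidneys. The groups did not overlap, and the 3 RAS libraries lay close together. Each held markers of other cells, with most T and NK and proximal tubule genes in replicate 1 and most distal nephron genes in replicates 2 and 3, and their part in the value was not tested. The log2 fold change was -1.81 (SE 0.19), -1.92 without KRM RAS replicate 1 and -1.72 with that library alone. In CD11chiMϕ, Sham had 32.6, 128 and 36.4 CPM and RAS 25.9, 26.0, 21.3 and 30.5 CPM, with no overlap and a log2 fold change of -1.41 (SE 0.47). Sham replicate 2 set most of that size, as the value without it was -0.52. T and NK cell markers summed to 223, 116, 56.0 and 62.4 CPM in the CD11chiMϕ RAS libraries, against 2.97 to 21.3 CPM in Sham. Fibroblast and pericyte markers summed to 31.1 to 312 CPM against 18.9 to 25.7 CPM. The other marker sums overlapped between these groups. No such marker was called, and their part in the value was not tested. In CD11cloMϕ, Sham had 95.2, 38.7 and 21.998 CPM and RAS 17.6, 17.8, 18.8 and 22.5 CPM. These groups overlapped by a single pair of libraries, and the log2 fold change of -1.43 (SE 0.42) was -0.69 without Sham replicate 1. The RAS levels of the 3 populations thus ran from 17.6 to 31.2 CPM in 11 libraries, and the Sham levels from 21.998 to 128 CPM in 10.

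Tsc22d3 was at 363, 373, 308 and 307 CPM in KRM Sham and at 296, 140 and 179 CPM in KRM RAS. The groups did not overlap, but replicate 1 missed the lowest Sham library by little. The log2 fold change of -0.62 (SE 0.25) was -1.01 without KRM RAS replicate 1 and -0.14 with it alone. In the deposited log2 values, where its column does not match its counts, replicate 1 read 7.49 beside 7.15 and 7.55 in replicates 2 and 3. KRM Sham read 8.28 to 8.56 there. By counts, the 2 lowest libraries were those with many distal nephron, endothelial and fibroblast markers, whose part was not tested. In CD11chiMϕ, 3 of the 4 RAS libraries had 99.3 to 117 CPM and replicate 1 had 303 CPM, while Sham had 269, 315 and 119 CPM, the last in the library with the most proximal tubule genes. The CD11cloMϕ libraries were higher, at 357 to 543 CPM in Sham and 250.3 to 613 CPM in RAS kidneys, and in Sham did not overlap with CD11chiMϕ, a log2 fold change of -0.93 (SE 0.36) for CD11chiMϕ minus CD11cloMϕ.

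Dusp1 was at 1640 to 6725 CPM over the libraries. KRM Sham had 4967, 4678, 3556 and 5555 CPM and KRM RAS 2904, 2637 and 3205 CPM. All RAS libraries lay below all Sham libraries, and the log2 fold change was -0.57 (SE 0.18), with -0.60 without KRM RAS replicate 1 and -0.64 with that library alone. The summed CPM of 14 dissociation and immediate early genes was also lower in KRM RAS (19757 to 23471) than in KRM Sham (28063 to 43411). Its members went both ways, with 2 called higher and 3 lower, where 7.77% and 1.94% of all genes were. Their median log2 fold change was 0.04. The member most abundant in KRM Sham, the heat shock gene Hspa1b (a near-identical copy of Hspa1a, so its reads are uncertain, and named after its values were seen), was at 9369 to 12883 CPM in KRM Sham and 2121 to 6066 CPM in KRM RAS. The part of these genes in the Dusp1 value was not tested. In the monocyte-derived populations the RAS and Sham libraries overlapped, with log2 fold changes of -0.25 (SE 0.49) in CD11chiMϕ and -0.14 (SE 0.23) in CD11cloMϕ. The value in CD11chiMϕ ran from -0.58 without Sham replicate 3 to 0.27 without Sham replicate 1. That in CD11cloMϕ ran from -0.27 to 0.01 when single libraries were left out.

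Klf9 was highest in replicate 3 among the Sham libraries of each population. These libraries carried more summed proximal tubule than distal nephron markers. The sums were 14574 against 1174 CPM in CD11chiMϕ, 6045 against 516 in CD11cloMϕ and 2196 against 160 in KRM. By counts, the highest KRM values were in RAS replicates 2 and 3, with many distal nephron, endothelial and fibroblast markers. KRM Sham had 4.69, 5.40, 13.5 and 3.66 CPM, with the highest value in replicate 3, and KRM RAS had 5.50, 43.8 and 38.6 CPM. Replicate 3 was also the highest Sham library in CD11chiMϕ, at 63.4 CPM against 11.8 and 6.90, and in CD11cloMϕ, at 54.3 CPM against 15.7 and 19.2. The KRM log2 fold change of 2.19 (SE 0.72) was -0.30 with replicate 1 as the only RAS library. In the deposited log2 values the column of that library does not match its counts. There Klf9 read 4.54, 4.62 and 4.42 in KRM RAS replicates 1, 2 and 3, and 1.54 to 2.79 in KRM Sham. The log2 fold change in CD11chiMϕ went from -0.83 (SE 0.75) to 0.81 without Sham replicate 3. In CD11cloMϕ RAS replicate 2 Klf9 was at 32.8 CPM beside only 3.94 CPM of distal nephron markers. The part of tubule RNA or of the other markers was not tested. Per1 had its lowest group means in KRM, at 19.4 to 27.1 CPM in Sham and 20.3 to 29.8 CPM in RAS kidneys. In Sham kidneys these libraries lay below all those of CD11chiMϕ (32.4 to 52.7 CPM) and CD11cloMϕ (73.0 to 129 CPM), with log2 fold changes of -0.87 (SE 0.21) and -2.04 (SE 0.21). Between RAS and Sham, Per1 overlapped in each population, with log2 fold changes of 0.28 (SE 0.19) in KRM, 0.62 (SE 0.41) in CD11chiMϕ and -0.28 (SE 0.37) in CD11cloMϕ. In the deposited log2 values the column of KRM RAS replicate 1 read 6.14 for Per1, above KRM Sham at 3.17 to 3.77.

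**Figure D2:**
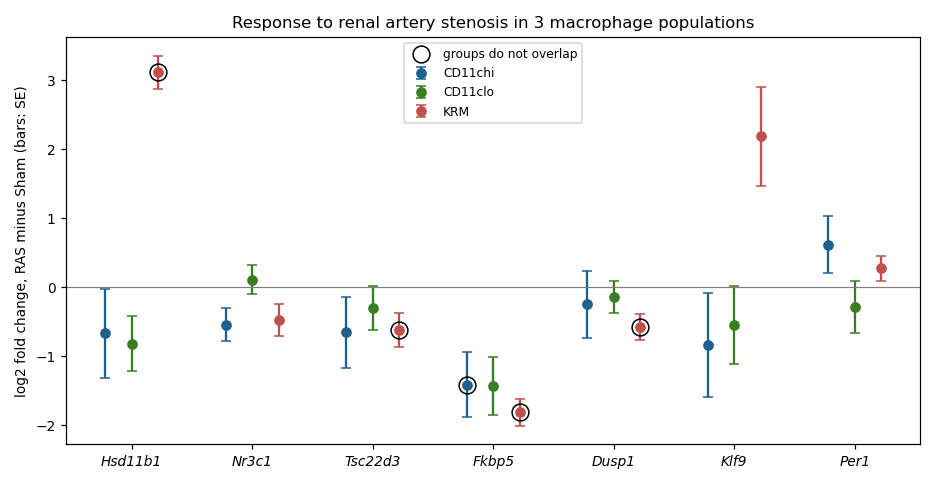
Log2 fold change of RAS over Sham with its standard error for the 7 genes in CD11chiMϕ, CD11cloMϕ and KRM, with black rings where the Sham and RAS libraries did not overlap. Hsd11b1 in KRM stands at 3.12, and Fkbp5 lies between -1.81 and -1.41 in the 3 populations.

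All 7 genes passed the filter on low counts in every comparison. In KRM, 1 of the 7 was higher in RAS without overlap and 3 were lower, where over 12852 genes 10.5% were higher and 17.1% lower by that criterion. The median log2 fold change of the 7 was -0.47, against 0.02 over all genes. In CD11chiMϕ 0 were higher and 1 lower (4.36% and 2.5% of 12739 genes), and in CD11cloMϕ none were apart in either direction (4.46% and 3.95% of 12301 genes). Since the genes were chosen for such differences, nothing is read from these counts. In Sham kidneys, KRM against CD11chiMϕ gave 1 higher and 2 lower (13.5% and 10.9% of all genes), KRM against CD11cloMϕ 1 higher and 3 lower (24.9% and 23.9%), and CD11chiMϕ against CD11cloMϕ 0 higher and 3 lower (12.4% and 14.3%). In RAS kidneys the same pairs gave 0 and 0 (10.9% and 15.8%), 1 and 2 (13% and 17.6%), and 0 and 1 (9.35% and 7.28%). The last pair was set apart by Dusp1, and KRM against CD11cloMϕ of RAS kidneys by higher Fkbp5 and lower Dusp1 and Per1. The 3 responses share no libraries with one another, but each population comparison reuses the libraries of a response.

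Compared per length, on the log2(TPM + 1) scale of the second table and without KRM RAS replicate 1, Dusp1 had the highest level of the 7 in every group. In KRM Sham its median level was 11.96, followed by Tsc22d3 at 8.30, Nr3c1 at 6.80, Fkbp5 at 5.79, Per1 at 3.47, Klf9 at 1.85 and Hsd11b1 at 1.81. Klf9 and Hsd11b1 overlapped there. In CD11cloMϕ Sham the median level of Hsd11b1 was 4.99, above Fkbp5 at 4.25, with overlapping libraries, and below Per1 at 5.14.

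The counterpart enzyme and its partners were read from lists of pathway genes other than the 7. Hsd11b2 was at 0 to 0.105 CPM in KRM Sham and at 0.687, 318 and 233 CPM in KRM RAS replicates 1, 2 and 3. The 2 high libraries were those with 3853 and 2866 CPM of distal nephron markers, among which this enzyme is normally found, and the only CD11chiMϕ Sham library above 0, replicate 3 at 31.6 CPM, was also the one with 1174 CPM of them. With 2 high libraries it missed the filter in the comparison of KRM RAS and Sham and was not tested there. In RAS kidneys it was higher in KRM than in CD11chiMϕ by a log2 fold change of 6.89 (SE 1.61, edgeR adjusted p = 0.0417), which became -1.18 with KRM RAS replicate 1 alone. Nr3c2 was at 2.85, 23.0002 and 18.7 CPM in KRM RAS and 3.17 to 4.99 CPM in KRM Sham, a log2 fold change of 2.05 that did not pass the test. H6pd was at 45.6, 55.6 and 58.5 CPM in KRM RAS and 45.9 to 62.5 CPM in KRM Sham, with overlapping groups, and its log2 fold change was 0.13 (SE 0.17).

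**Figure D3:**
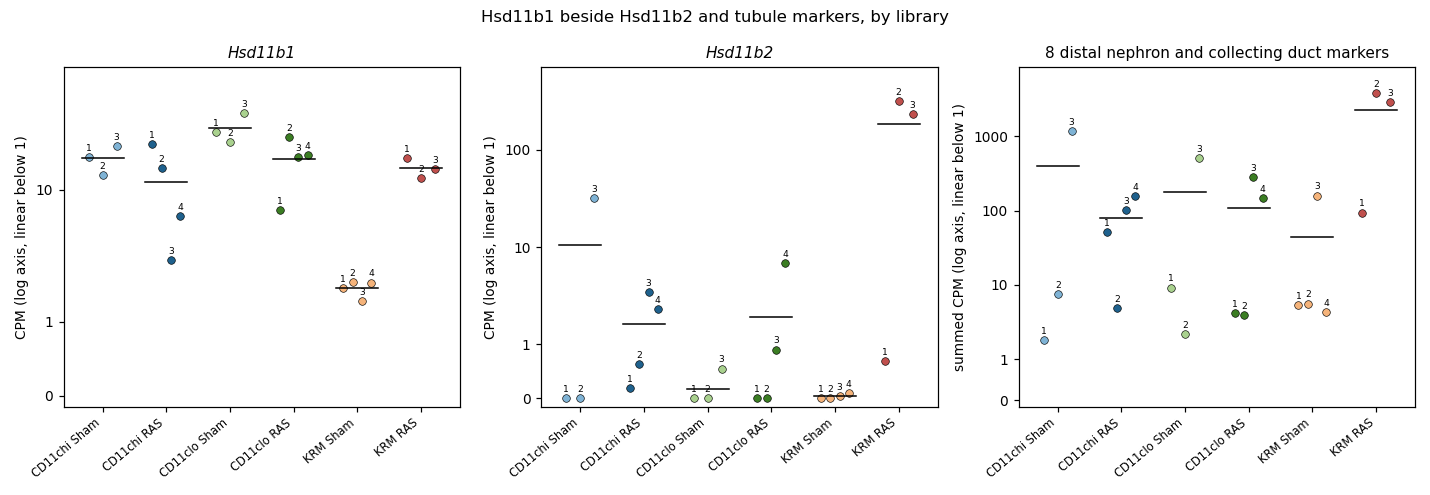
CPM of Hsd11b1, CPM of Hsd11b2 and the summed CPM of 8 distal nephron and collecting duct markers in each library, on log axes that are linear below 1, with replicate numbers and group means. In KRM RAS, Hsd11b2 and the markers are high in replicates 2 and 3, while Hsd11b1 is at 12.2 to 17.3 CPM in all 3 replicates.

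Lists of pathway genes (6 of glucocorticoid metabolism and access, 9 receptor partners, 30 other targets and 14 clock genes, of which 57 different genes were found) were tested with all other genes. They were chosen with earlier results of these data known. No excess or lack against all genes is therefore read from their shares, here or in the comparisons below. In KRM, 6 of 56 tested were higher in RAS and 3 lower at an adjusted p under 0.05 (edgeR quasi-likelihood test), or 10.7% and 5.36%, where 7.77% and 1.94% of all 12852 genes were (9.7% in all). By list, 5 of the 30 targets rose and 3 fell, 1 of 13 clock genes rose, and none of the 5 metabolism genes or 9 receptor partners passed. The median log2 fold change over the 56 was 0.03 and that of all genes 0.02. Bhlhe40, a repressor of the clock that glucocorticoids and hypoxia can both induce, went from 4.33 to 8.05 CPM in KRM Sham to 40.7, 515 and 415 CPM in KRM RAS (log2 fold change 5.74, SE 0.81, adjusted p = 0.0163). The metallothionein Mt2 rose by 3.10 (SE 0.68, adjusted p = 0.0358), though at 5.99 CPM replicate 1 lay within its Sham range of 3.97 to 6.86. The transglutaminase gene Tgm2 rose by 2.82 (SE 0.60, adjusted p = 0.0343), from 7.94 to 27.3 CPM in Sham to 29.4, 140 and 132 CPM, and by 0.96 with replicate 1 alone. Anxa1, Thbs1 and Cxcr4 rose as well, though Thbs1 was at 19.8 CPM in replicate 1, inside its Sham range, and at 171 and 180.1 CPM in the other 2. Replicates 2 and 3 are the libraries with many distal nephron, endothelial and fibroblast markers, whose part in these rises was not tested.

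Of the 3 that fell, Zbtb16, which encodes a zinc finger factor that glucocorticoids induce in many cells, went from 29.0, 32.7, 34.5 and 38.2 CPM in KRM Sham to 18.1, 4.95 and 6.41 CPM in RAS kidneys. Its log2 fold change was -1.68 (SE 0.42, adjusted p = 0.0479). Txnip, the inhibitor of thioredoxin, went from 1073 to 1234 CPM to 740, 456 and 466 CPM (log2 fold change -0.98, SE 0.19, adjusted p = 0.0291). The GTPase gene Rhob had a log2 fold change of -0.63 (SE 0.12, adjusted p = 0.0282). The list genes that moved thus went both ways. The count of 9 rested on single libraries, as did that over all genes. It was 31, 20 higher and 11 lower, without KRM RAS replicate 1, where 7071 of all genes passed. It was 0 without KRM RAS replicate 2 or 3 or KRM Sham replicate 1, 2 or 4, where 26 to 43 of all genes passed. With KRM RAS replicate 1 as the only RAS library it was 2 (Anxa1 and Bhlhe40, both higher) and 174 over all genes, in a fit that takes its spread from the Sham libraries and assumes that the lone library varies like them.

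**Figure D4:**
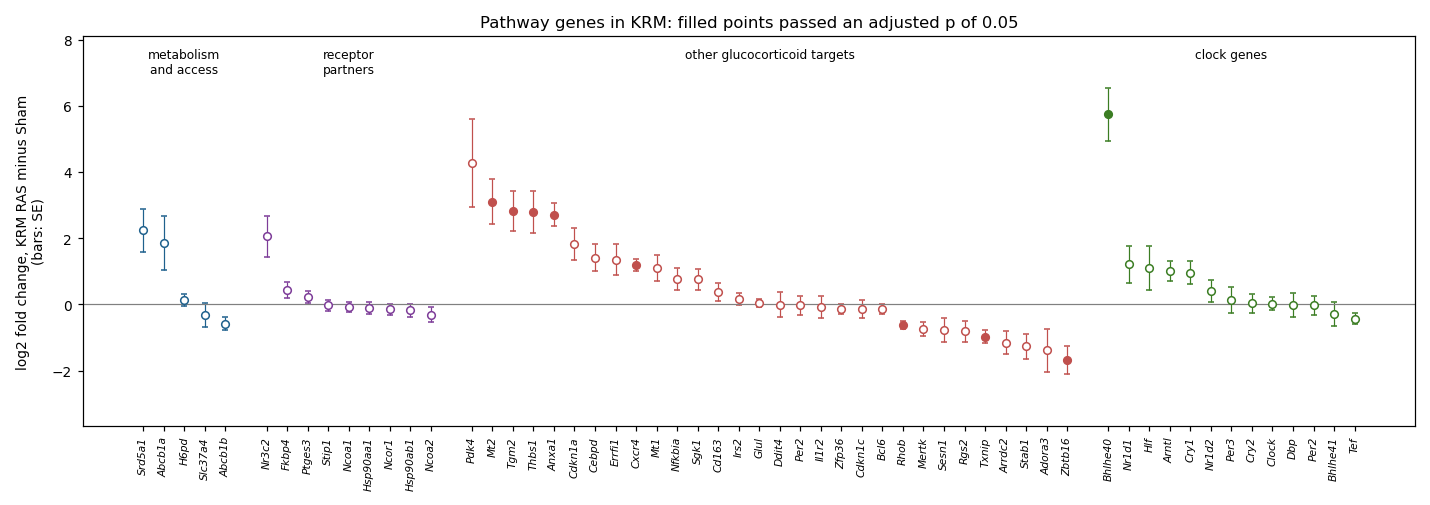
Log2 fold change of KRM RAS over Sham with its standard error for the pathway genes tested, grouped by list, with filled points for an adjusted p under 0.05. Bhlhe40 is the highest at 5.74 and Zbtb16 the lowest filled point at -1.68, and Per2 is drawn in 2 lists.

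In CD11chiMϕ and CD11cloMϕ none of the 57 and 56 pathway genes tested passed in RAS against Sham, as none of all 12739 and 12301 genes did (0% by edgeR's quasi-likelihood test), while 1247 and 1102 genes (9.79% and 8.96%), 12 and 8 of them pathway genes, had an unadjusted p under 0.05. By DESeq2 196 and 102 genes passed, among them 4 pathway genes in CD11chiMϕ, where Bhlhe40, Mt2, Cdkn1a and Il1r2 were higher, and 0 in CD11cloMϕ. Without CD11chiMϕ RAS replicate 1, edgeR called 1 pathway gene and 39 of all genes in CD11chiMϕ. The difference in response between KRM and CD11cloMϕ passed for 2 pathway genes of 57 (0.245% of all genes passed), Bhlhe40 at 5.42 (SE 0.89, adjusted p = 0.0377) and Anxa1 at 3.00 (SE 0.54, adjusted p = 0.0458). That count was 14 without KRM RAS replicate 1, where 2357 of all genes passed, and at most 1 without any other library except CD11cloMϕ RAS replicate 1, where it was 3. For KRM against CD11chiMϕ and for CD11chiMϕ against CD11cloMϕ no pathway gene and no other gene passed, with 3000 and 900 genes (21.2% and 6.65%), 13 and 5 of them pathway genes, at an unadjusted p under 0.05. Without KRM RAS replicate 1 the first of these had 9 pathway genes beside 1097 over all genes, and without CD11chiMϕ RAS replicate 1 it had 1 beside 58.

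In Sham kidneys, 2 of 56 pathway genes were higher and 5 lower in KRM than in CD11chiMϕ, where 1% and 4.13% of all 12380 genes were (5.13% in all). Bhlhe40 averaged 6.59 ± 1.81 CPM over the 4 KRM libraries and 216 ± 120 CPM over the 3 of CD11chiMϕ, a log2 fold change of -5.07 (SE 0.42, adjusted p = 0.0031). Anxa1, which encodes the glucocorticoid-induced annexin A1, was lower by -3.63 (SE 0.37, adjusted p = 0.0043) and Tgm2 by -3.29 (SE 0.50, adjusted p = 0.0152). Rhob and Arrdc2 were higher by 1.03 and 0.96 (adjusted p = 0.0203 and 0.0435). With the replicate number as a block in edgeR, 3 pathway genes passed beside 89 over all genes. They were Bhlhe40, Anxa1 and Tgm2 (adjusted p = 0.0408, 0.0411 and 0.0433), and Rhob and Arrdc2 had adjusted p = 0.151 and 0.137. That fit is an alternative, since no label pairs these libraries. The count was 14 without CD11chiMϕ Sham replicate 3 (1717 over all genes), 4 without CD11chiMϕ Sham replicate 1 or KRM Sham replicate 3, and 3 without KRM Sham replicate 1, 2 or 4 (155 to 224 over all genes in these 5 fits).

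Against CD11cloMϕ, 14 of 56 were higher and 15 lower in KRM (19.5% and 22.4% of 12365 genes, 41.9% in all). The scavenger receptor gene Stab1 (532 ± 55.3 against 87.9 ± 18.7 CPM), Sesn1 (174 ± 2.70 against 41.4 ± 6.16 CPM) and the clock repressor Bhlhe41 (4.604 ± 1.26 against 0.612 ± 0.608 CPM) were higher, with log2 fold changes of 2.58, 2.05 and 2.87. Thbs1, Anxa1 and Bhlhe40 were lower, by -6.20, -5.48 and -5.28 (adjusted p at most 1.30e-05 in edgeR). With the block the count was 27. Between CD11chiMϕ and CD11cloMϕ of Sham kidneys none of 56 passed in edgeR, where 0.917% and 0.603% of 12105 genes were higher and lower (1.52% in all). At an unadjusted p under 0.05 there were 8 of the 56, and the share of all genes at that threshold was not taken. With the block in edgeR 3 passed, beside 595 over all genes. Anxa1 and Cebpd were lower in CD11chiMϕ (log2 fold changes of -1.89 and -1.33) and Errfi1 higher (1.55), at adjusted p = 0.025, 0.0302 and 0.0498. DESeq2 called 5 beside 1045 over all genes, and without Sham replicate 3 of both populations 11 passed beside 1898 over all genes.

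In RAS kidneys, 8 of 57 were higher and 1 lower in KRM than in CD11chiMϕ (4.17% and 5.07% of 13226 genes, 9.23% in all). Pdk4 and Nr3c2 were higher by 5.25 and 4.42 (SE 1.12 and 0.86, adjusted p = 0.0355 and 0.0299) beside Hsd11b2, and Anxa1 was lower by -2.36 (SE 0.48, adjusted p = 0.0337). Both were highest in the 2 KRM RAS libraries with many distal nephron, endothelial and fibroblast markers: Pdk4 was at 1.18, 39.8 and 36.3 CPM and Nr3c2 at 2.85, 23.0002 and 18.7 CPM in replicates 1, 2 and 3. With replicate 1 alone the log2 fold changes were 0.78 and 2.01. The source of those markers and their part in these values were not tested. None of the 57 passed without KRM RAS replicate 2 or 3 or CD11chiMϕ RAS replicate 3 or 4, 1 without CD11chiMϕ RAS replicate 2, and 18 without CD11chiMϕ RAS replicate 1, where the counts over all genes were 14 to 50, 201 and 2291. Against CD11cloMϕ 1 was higher, Pdk4 at 5.28 (adjusted p = 0.0493, and 0.82 with KRM RAS replicate 1 alone), and 4 were lower (3.28% and 5.89% of 13179 genes, 9.17% in all), led by Thbs1, Cd163 and Anxa1 at -4.44, -2.74 and -2.48 (adjusted p = 0.0448, 0.0301 and 0.0348). That count was 0 without KRM RAS replicate 2 or 3 or CD11cloMϕ RAS replicate 2 or 4, 3 without CD11cloMϕ RAS replicate 1, and 11 without KRM RAS replicate 1, where the counts over all genes were 0 to 89, 541 and 3239.

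Between CD11chiMϕ and CD11cloMϕ of RAS kidneys 0 were higher and 8 of 53 lower in CD11chiMϕ (5.15% and 3.12% of 12305 genes, 8.27% in all). These were led by Thbs1 at -5.08 (SE 0.76, adjusted p = 0.0063), the clock gene Per2 at -1.83 (SE 0.44, adjusted p = 0.0351) and Cebpd at -1.26 (SE 0.20, adjusted p = 0.0070). Clock genes made up 4 of the 8. The count was 16 without CD11chiMϕ RAS replicate 1 (2169 over all genes), 5 without replicate 2 (597) and 2 without replicate 3 or 4 of that group (256 and 273). It was 3, 4 and 2 without CD11cloMϕ RAS replicates 2, 3 and 4, where the first and last fits called 305 and 299 of all genes and the other 1024.

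The genes whose log2 CPM followed Hsd11b1 most closely over the 21 libraries, among 11295 genes, were Ikbke (Pearson r = 0.847), Cxcl13 (0.844), Fam160a2 (0.84), Cd5l (0.84) and Nupr1 (0.824). Ikbke encodes a kinase of the IKK family, Cxcl13 a B cell chemokine and Cd5l a protein that macrophages secrete. Each had its lowest group mean in KRM Sham, as Hsd11b1 did, at 1.11, 0.338, 2.11, 0.0851 and 3.42 CPM in that order, and a mean of 10.8, 16.8, 15.91, 2.82 and 31.6 CPM in KRM RAS. Libraries of 1 population share their cell type, so these values describe the likeness of patterns only. By rank correlation 1 of the 5, Cd5l, stayed among the first 5. For Fkbp5 the most alike was Mblac2 (0.84). For the other 5 genes the 2 most alike were Pou2f2 and St7l for Nr3c1 (0.892 and 0.89), Cln8 and Osbpl11 for Tsc22d3 (0.945 and 0.934), Tmem184b and Chst12 for Dusp1 (both 0.881), Cgnl1 and Ctdspl for Klf9 (0.924 and 0.911), and Yrdc and Srsf6 for Per1 (0.946 and 0.938).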

How the data were processed

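RNA of sorted kidney macrophages was measured in 21 libraries made with the SMART-Seq v4 Ultra Low-Input kit and Nextera XT. The authors aligned paired-end reads to mm10 with the OSA aligner, used Ensembl gene annotation, and deposited estimated counts per gene, not scaled, with no replicates pooled. DESeq2 is named in the submitters' processing notes. The authors also deposited a table scaled to TPM and quantile normalized, whose values are on the log2 scale, as log2(TPM + 1). It was used only to compare levels per length and as an alternative.

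Estimated counts were rounded and summed by gene name (3730 of the 37620 lines had a name in common with another), which gave 34236 names. With library totals from 6891142 to 18592381 counts, counting error was largest for Hsd11b1, at 15 to 29 counts in KRM Sham and 25 in 1 CD11chiMϕ RAS library, and for Klf9, at 35 counts or more in KRM Sham. Groups came from the sample labels. CPM used TMM factors over all libraries. Comparisons used edgeR 4.0.16 in R 4.3.3 on the libraries of the groups compared: filterByExpr (minimum count 10, minimum total 15), TMM, the two-sided quasi-likelihood F test and Benjamini-Hochberg adjustment over all genes tested, also for the difference in response. The same fits gave log2 fold changes and standard errors of the 7 genes. Likeness used log2 CPM with a prior count of 2 and an average of at least 1. The procedure was tested on simulated data.

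The 7 genes and all gene lists were chosen with earlier results of these data known. Named pathway genes are Hsd11b2, H6pd and Nr3c2, and in each comparison up to 3 in each direction with an adjusted p under 0.05, the largest changes and a group mean of at least 1 CPM. Others are named only where a count of 5 or fewer is spelled out.

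Alternatives were median-of-ratios size factors, total library size, no filter, DESeq2 1.42.0, a blocked fit on replicate number, a joint fit of all 6 groups, and leaving out each library. Leaving out Sham replicate 3 of both populations, keeping only replicate 1 of KRM RAS, and the log2 table were added after seeing the data. The pairing of replicate numbers was checked through the correlation of deviations from the group means. In Sham kidneys every same-numbered pair of libraries of 2 populations correlated at 0.201 or more, though no label says that the number pairs them. Replicate 3 of each Sham population carried proximal tubule genes, which can move the other deviations together, so the check cannot show a pairing. The blocked Sham fits are therefore an alternative only. In the other comparisons some pairs were at 0.0758 or less. Replicate pairs differed by more than sampling noise, but unequally. The chi-square over genes, per degree of freedom, was 5.12 for CD11chiMϕ RAS replicates 3 and 4. Other pairs of that group had 94.6 to 128. It was 10.3 for KRM RAS replicates 2 and 3, which had 138 and 108 with replicate 1. No label says whether the close pairs are separate mice. RefSeq promoters were used for 6 of the 7 genes, all but Nr3c1. Protein sequences were not used here. One gene of the likeness ranking is not reported here.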

Additional observations from a re-analysis of the deposited data

Results flagged for a closer look

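In CD11chiMϕ of RAS kidneys, replicate 1 stood apart from the other 3 libraries for 2 of the 7 genes. Nr3c1 was at 149.1 CPM there, where the others had 107.9 to 114.0 CPM, and Tsc22d3 at 303.0 CPM, where the others had 99.3 to 117.5 CPM. The gap to the nearest library, as a fraction of the group's range, was 0.853 and 0.911. Of 21 combinations of gene and group examined, 2 stood out in this way, and about 1 in 20 would by chance. Hsd11b1 was also highest in that library, at 22.03 CPM. It is the library that KRM RAS replicate 1 correlated with at 0.959.

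Among pathway genes the response to RAS differed between KRM and CD11cloMϕ for Bhlhe40, by 5.42 on the log2 scale (adjusted p = 0.0377 in edgeR), and for Anxa1, by 3.00 (adjusted p = 0.0458). Bhlhe40 was at 40.7, 515 and 415 CPM in KRM RAS, above the KRM Sham libraries in 3 of 3. Anxa1 was at 41.4, 117 and 99.4 CPM in KRM RAS and 12.4 to 15.5 CPM in KRM Sham, higher in 3 of 3 libraries.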

How the results depend on the processing

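The log2 fold change of Hsd11b1 between RAS and Sham in KRM was between 2.95 and 3.30 under every alternative on the counts, and 1.62 in the log2 table, whose values for KRM RAS replicate 1 differ from its counts. In the same table KRM minus CD11chiMϕ and KRM minus CD11cloMϕ of Sham kidneys were -2.70 and -3.39, and KRM minus CD11cloMϕ of RAS kidneys was -0.99. KRM minus CD11chiMϕ of RAS kidneys, with overlapping groups, went from 0.40 to -0.35. On the counts without Sham replicate 3 of both populations, the 2 Sham values were -2.995 and -3.71. Hsd11b2 in RAS kidneys, KRM minus CD11chiMϕ, reversed to -1.18 with KRM RAS replicate 1 as the only KRM library. Of 28 results on named pathway genes 9 stayed past the threshold under every alternative, and 47 of 1098 further values of the 7 genes moved by more than the spread between replicates. Of the 5 genes most like Hsd11b1, 1 was kept by Spearman's rho, 5 with a prior count of 0.5, and 2 without the replicate 3 libraries and KRM RAS replicate 1. The cause of these changes was not tested.

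Counts of pathway genes past the threshold depended on the fit. DESeq2 called 4 for RAS against Sham in CD11chiMϕ and 23 in KRM. In Sham kidneys it called 16 for KRM against CD11chiMϕ and 5 for CD11chiMϕ against CD11cloMϕ, and in RAS kidneys 16 and 13 for KRM against CD11chiMϕ and CD11cloMϕ and 14 for CD11chiMϕ against CD11cloMϕ. The joint fit of 6 groups gave 19 for KRM and 4 for CD11chiMϕ against CD11cloMϕ in Sham and 11 for KRM against CD11cloMϕ in RAS kidneys. Total library size gave 4 for CD11chiMϕ against CD11cloMϕ in RAS kidneys. Without Sham replicate 3 of both populations, KRM against CD11chiMϕ gave 13 (1497 over all genes) and CD11chiMϕ against CD11cloMϕ 11 (1898). With only replicate 1 of KRM RAS the count was 2 against Sham, 0 against CD11chiMϕ and 0 against CD11cloMϕ, beside 174, 0 and 6 over all genes. Those fits assume that the lone library varies like the other group.

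When single libraries were left out, these counts ran from 0 to 31 in KRM and 0 to 1 in CD11chiMϕ for RAS against Sham, from 3 to 14 for KRM against CD11chiMϕ and 0 to 1 for CD11chiMϕ against CD11cloMϕ in Sham, and, in RAS kidneys, from 0 to 18 and 0 to 11 for KRM against CD11chiMϕ and CD11cloMϕ and 2 to 16 for CD11chiMϕ against CD11cloMϕ. For the difference in response they ran from 0 to 9 for KRM against CD11chiMϕ and 0 to 14 for KRM against CD11cloMϕ.

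In fits with a replicate block, the Sham counts of pathway genes were 3 for KRM against CD11chiMϕ, 27 for KRM against CD11cloMϕ and 3 for CD11chiMϕ against CD11cloMϕ, and no other Sham call on pathway genes moved by over 1.5 times. In other comparisons the block gave 0 for RAS against Sham in KRM, 1 for KRM against CD11chiMϕ in RAS kidneys and 0 for the response of KRM against CD11cloMϕ. The Hsd11b1 values of the 3 Sham comparisons were -3.33, -4.07 and -0.68 with the block.

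Over all genes, DESeq2 called 196, 102 and 4087 for RAS against Sham in CD11chiMϕ, CD11cloMϕ and KRM. It called 1722 and 1045 in Sham for KRM against CD11chiMϕ and CD11chiMϕ against CD11cloMϕ, and 3073, 3515 and 2030 for the 3 pairs in RAS kidneys. The block gave 42 for KRM RAS, 89 and 595 for those Sham pairs, 101 for KRM against CD11chiMϕ in RAS kidneys and 2 for the response of KRM against CD11cloMϕ. For the same Sham pairs, no filter gave 395 and 95. The joint fit gave 3447 for KRM and 818 for CD11chiMϕ against CD11cloMϕ in Sham. In RAS kidneys it gave 2138 and 1838 for KRM against CD11chiMϕ and CD11cloMϕ and 1729 for CD11chiMϕ against CD11cloMϕ, and it gave 5 for RAS against Sham in CD11chiMϕ and 16 and 58 for the responses of KRM against CD11chiMϕ and CD11cloMϕ. Total library size gave 113 for CD11chiMϕ against CD11cloMϕ in Sham, and median-of-ratios factors gave 59 for the response of KRM against CD11cloMϕ. Leaving out KRM RAS replicate 1 gave 7071 for RAS against Sham in KRM, and leaving out KRM Sham replicate 1 gave 26. The other such counts ran, with 1 library left out, over 155 to 1717 and 0 to 705 for the same Sham pairs, 4006 to 5940 for KRM against CD11cloMϕ in Sham, 14 to 2788, 0 to 3239 and 256 to 2169 for the 3 pairs in RAS kidneys, 0 to 39 for RAS against Sham in CD11chiMϕ, and 0 to 1097 and 0 to 2357 for the response of KRM against CD11chiMϕ and CD11cloMϕ.

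Hsd11b1 rests on 15 to 29 counts per library in KRM Sham and on 25 in CD11chiMϕ RAS replicate 3.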

Other observations

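By rank correlation over the 21 libraries, the 5 genes most like Hsd11b1 were Fcna (rho = 0.884), Ccl24 (0.862), Folr2 (0.855), Cd5l (0.853) and Lyve1 (0.847), named here after their values were seen. Folr2 and Lyve1 are known as markers of macrophages that live along vessels in several tissues. Without the replicate 3 libraries and KRM RAS replicate 1 they were Ecm1 (Pearson r = 0.922), Nupr1 (0.905), Ikbke (0.904), Klrb1f (0.897) and Klhl12 (0.894).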
